A study of Mus musculus with 5 samples.

Results

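The 35 genes described here build ribosomes or, as Myc and Mycn, encode the transcription factors best known for driving that work. They were taken by symbol from a list of genes of this pathway, drawn up with earlier results of these data known and with no threshold on measured values, and 34 of the 35 were found by symbol in both kinds of deposited table, of 38166 features in the stem and progenitor cell tables and 34315 in the granulocyte tables. Noc2l, a nucleolar 60S assembly factor, had no row under that symbol and was not analysed here.

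PolyA-selected RNA of C57BL/6 mouse bone marrow cells was sequenced in 5 libraries. Granulocytes, the short-lived phagocytes of the blood, were sorted as Gr1+ cells from 12-month-old mice, and their 2 libraries are technical replicates of 1 biological replicate, so n = 1. The other 3 libraries hold KSL cells, which are c-Kit+, Sca-1+ and Lin- cells that include blood stem and early progenitor cells; the ages of these mice are not given in the labels. Sca-1+ cells of mice injected with 5-FU (5-fluorouracil, which kills dividing cells) received a GFP+ retrovirus, spent 2 days in medium with 10 ng/ml mSCF (stem cell factor) and 100 ng/ml mTPO (thrombopoietin), and were sorted as KSL cells that carried GFP. The retrovirus was LncHSC-1-KD, LncHSC-2-KD or Control-KD, with 1 library for each: LncHSC-1-KD and LncHSC-2-KD knock down the non-coding transcripts named LncHSC-1 and LncHSC-2, and Control-KD served as the control. Injection, transduction and culture with the growth factors were thus shared by all 3 KSL libraries, the control included. The levels of LncHSC-1 and LncHSC-2 themselves were not analysed here, so the knockdowns were not checked.

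Ribosomes are assembled in the nucleolus, where RNA polymerase I copies the ribosomal RNA genes into a long precursor. Small nucleolar ribonucleoproteins (snoRNPs) modify this precursor, and large sets of assembly factors cut and fold it into the small (40S) and large (60S) subunits. MYC proteins, bound to DNA together with MAX at E-box sequences, raise transcription of many of these genes, and dividing progenitor cells carry out far more of this work than mature granulocytes.

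The E-box is shown for the members that hold it near their start, because MYC and MAX are known to bind these letters. RefSeq promoter windows (mouse build GRCm38.p6), from 250 bases before to 50 bases after the annotated start of a gene, were matched by symbol for 30 of the 35 members, and not for Npm1, Fbl, Rrp12, Bop1 and Myc. The letters CACGTG, which read the same on both strands and were the only motif searched, occurred in the windows of 4 members. The 4 sites follow, each 5′ to 3′ on the strand of its gene with the E-box in capitals.
Pes1, chr11:3963965-3963994, + strand: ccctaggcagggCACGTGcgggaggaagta
Mybbp1a, chr11:72441355-72441376, + strand: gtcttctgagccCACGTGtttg
Nle1, chr11:82908355-82908384, - strand: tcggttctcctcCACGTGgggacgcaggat
Wdr43, chr17:71616220-71616249, + strand: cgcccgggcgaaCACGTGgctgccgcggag

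These 4 members are 13.3% of the 30 with a window, and 8.09% of the 27025 mouse genes with a window (2187 genes) held the motif. Pes1 and Nle1 act in 60S assembly, Wdr43 in 40S assembly, and Mybbp1a is a nucleolar regulator of ribosomal RNA genes. In all 4 the motif lay in the 50 bases after the annotated start; 1.28% of all genes with a window (347) had it there, a stretch chosen after the positions were seen. A match is a description of the letters, and members without it lack it only in this window.

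Transcript level is given as FPKM, reads per kilobase of transcript scaled to library depth, which allows levels of different genes to be set side by side. The 3 KSL libraries held about 24.1 M, 19.9 M and 21.0 M estimated reads for LncHSC-1-KD, LncHSC-2-KD and Control-KD. The 8 KSL and early progenitor markers, such as Kit and Ly6a, were each at 5 FPKM or more in all 3 KSL libraries, and the 10 granulocyte markers, such as Ly6g, were each at 5 FPKM or more in the granulocyte sample. Of the granulocyte markers 5 were at that level in Control-KD too, with S100a8 at 42.5 FPKM. The granulocyte sample also held markers of other and of dividing cells. Of the progenitor markers 2 reached 5 FPKM there, Kit at a mean of 5.64 FPKM and Cd48 at 9.63 FPKM. So did 1 of 4 measured erythroid markers (Hbb-b1, 54.8 FPKM), 1 of 5 megakaryocyte markers and 0 of 8 B lineage markers. All 6 monocyte and dendritic markers were at 5 FPKM or more there and ranked higher than in Control-KD, with Mpeg1 at 199 and 201 FPKM and Csf1r at 58.7 and 56.8 FPKM in the replicates. Of the 7 T and NK markers all ranked higher in granulocytes and 1, Cd3d, reached 5 FPKM, and 6 of 8 cycling genes were at 5 FPKM or more, with Mki67 at 34.6 and 35.4 FPKM. The part of these cells in the members' granulocyte levels was not tested. In bulk samples, fewer cells of a type and less RNA per cell cannot be told apart.

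Ribosome biogenesis genes stood high in all 3 KSL libraries and lower in granulocytes. In granulocytes 5 of the 34 measured members reached 5 FPKM and 12 were below 1 FPKM, whereas all 34 were above 10 FPKM in each KSL library. Of all named genes 26.5% were at 5 FPKM or more in granulocytes and 40% in Control-KD. The median named gene was at 0.243 FPKM in granulocytes, below the median member. The median member was at 1.45 FPKM in granulocytes and at 53.2 FPKM in LncHSC-1-KD, 54.2 FPKM in LncHSC-2-KD and 54.9 FPKM in Control-KD. Granulocytes and KSL cells come from separate experiments whose FPKM values were scaled differently, so no fold change was taken between them. Their ranks within each sample, which do not depend on the scaling, were set side by side. The median member was at percentile 61.6 of 19904 named genes in granulocytes and at percentile 92.7 in Control-KD.

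The members' share of all FPKM differed in the same direction. Their summed level was 105 FPKM in granulocytes, which is 0.0259% of the FPKM of all named genes, against 0.912%, 0.923% and 0.947% in LncHSC-1-KD, LncHSC-2-KD and Control-KD. With genes at 1000 FPKM or more left out, the shares were 0.0500% in granulocytes and 0.730%, 0.730% and 0.742% in LncHSC-1-KD, LncHSC-2-KD and Control-KD. That cut took Npm1 from the members in the KSL libraries and kept it in granulocytes. Without Npm1 in any sample, the members held 0.0217% of the FPKM of all named genes in granulocytes. They then held 0.616%, 0.603% and 0.620% in LncHSC-1-KD, LncHSC-2-KD and Control-KD. Culture, growth factors and 5-FU also separate the 2 experiments, and age may do so, as that of the KSL mice is not given. None of these can be told apart from cell type.

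**Figure D1:**
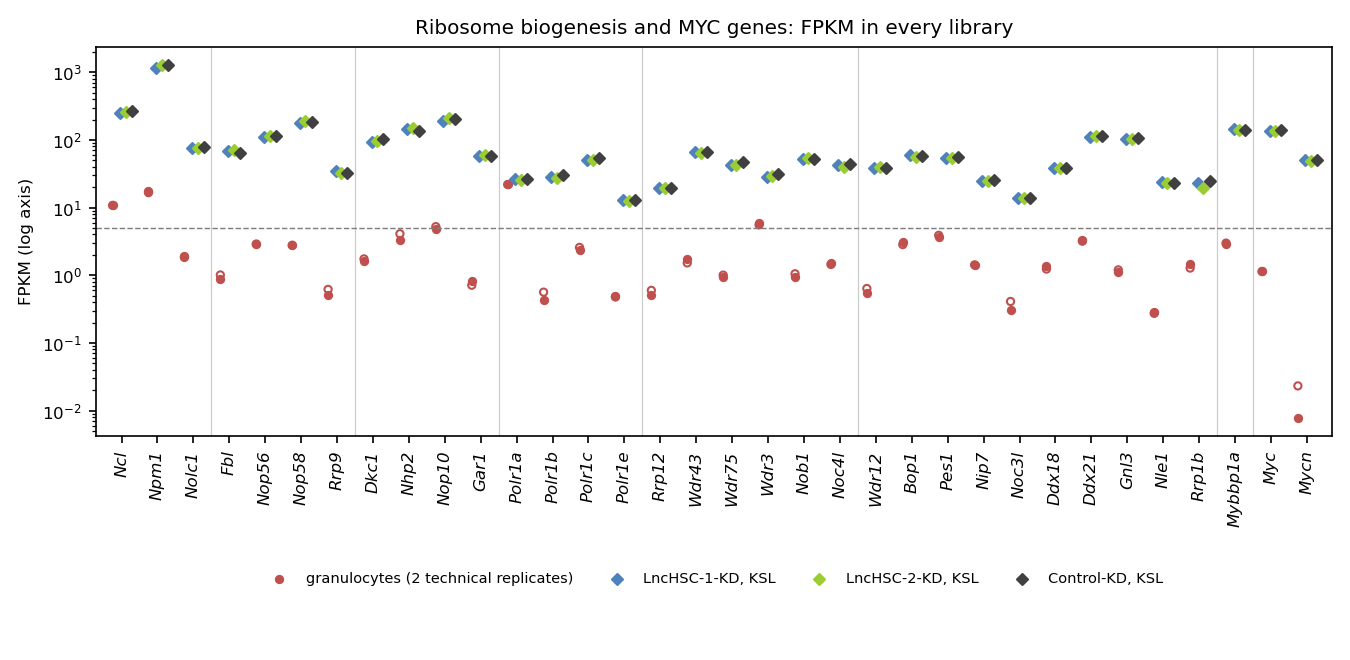
FPKM (log axis) of the 34 measured members, ordered by role with grey lines between roles: granulocytes as a filled circle (replicate 1) and an open circle (replicate 2), and LncHSC-1-KD, LncHSC-2-KD and Control-KD as diamonds. The dashed line is 5 FPKM; every KSL value lies above 10 FPKM, and 5 members have a granulocyte mean at or above the line.

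The nucleolar scaffold and histone chaperone proteins held the highest members in the KSL libraries; in granulocytes Polr1a was the highest. Npm1 (nucleophosmin; mm9 chr11:33052498-33063206, - strand), a nucleolar chaperone that also carries ribosomal proteins, was at 17.4 and 16.6 FPKM in the granulocyte replicates and at 1151 FPKM in LncHSC-1-KD, 1295 FPKM in LncHSC-2-KD and 1290.2 FPKM in Control-KD. Ncl (nucleolin), which binds ribosomal RNA genes and their precursor, was at 10.8 FPKM in both granulocyte replicates and at 253, 259 and 266 FPKM in LncHSC-1-KD, LncHSC-2-KD and Control-KD. Nolc1, which brings snoRNPs to the nucleolus, was at 1.91 and 1.83 FPKM in granulocytes and at 77.0, 74.9 and 78.1 FPKM in the same KSL libraries. Both Npm1 and Ncl were thus among the 5 members at 5 FPKM or more in granulocytes while standing at percentiles 99.9 and 99.2 in Control-KD. The sources used here do not say how reads shared with copies of Npm1 elsewhere in the genome were counted, so its level is uncertain.

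The proteins of the box C/D snoRNPs, complexes known for 2′-O-methylation of ribosomal RNA, had a median of 1.87 FPKM in granulocytes and 88.6 FPKM in Control-KD. Fbl (fibrillarin), the methyltransferase of the complex, was at 0.870 and 1.01 FPKM in granulocytes and at 69.4, 72.2 and 63.7 FPKM in LncHSC-1-KD, LncHSC-2-KD and Control-KD. Its partners Nop56 and Nop58 were at 2.85 and 2.89 FPKM and at 2.81 and 2.77 FPKM in the granulocyte replicates. In Control-KD they were at 114 and 186 FPKM. Rrp9, a protein of the U3 snoRNP that starts precursor cleavage, was the lowest of the group, with 0.512 and 0.618 FPKM in granulocytes and 34.5, 32.7 and 32.7 FPKM in the KSL libraries.

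The box H/ACA snoRNP proteins belong to complexes that carry out pseudouridylation. Dkc1 (dyskerin), the pseudouridine synthase of the complex, was at 1.64 and 1.74 FPKM in granulocytes and at 92.5, 97.6 and 102 FPKM in LncHSC-1-KD, LncHSC-2-KD and Control-KD. Nhp2 was at 3.36 and 4.10 FPKM in granulocytes and at 144, 152 and 134 FPKM in the same KSL libraries. Nop10 was at 4.79 and 5.22 FPKM in granulocytes, on either side of 5 FPKM, and at 190.5, 213 and 201 FPKM in the KSL libraries. Gar1, the 4th core protein, was at 0.823 and 0.712 FPKM in granulocytes and at 57.3, 59.7 and 58.3 FPKM in the KSL libraries. All 4 core proteins had a lower percentile in granulocytes than in Control-KD, as did 64.5% of the named genes at 10 FPKM or more in Control-KD.

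RNA polymerase I held the one member that ranked higher in granulocytes. Polr1a (mm9 chr6:71859047-71929355, + strand), its largest subunit, was at 22.0 and 21.9 FPKM in granulocytes and at 26.3, 25.2 and 26.1 FPKM in LncHSC-1-KD, LncHSC-2-KD and Control-KD. It stood at percentile 89.8 in granulocytes and 83.7 in Control-KD. The other subunits did not share this pattern. Polr1b, the second largest subunit, was at 0.432 and 0.562 FPKM in granulocytes and at 28.7, 27.8 and 30.0 FPKM in the KSL libraries. Polr1c, which is shared with RNA polymerase III, was at 2.38 and 2.58 FPKM in granulocytes and at 50.6, 49.8 and 54.0 FPKM in the KSL libraries. Polr1e was at 0.498 and 0.477 FPKM in granulocytes and at 12.8, 12.5 and 13.0 FPKM in the KSL libraries. The granulocyte value of Polr1a was alike in both replicates, which are runs of 1 sample, with 6691 and 6658 count units.

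Genes around Polr1a, looked up after its values were seen, differed from it and from each other in level. The nearest gene past its end, 9130221F21Rik, lies 34535 bases away on the opposite strand and was at 0 FPKM in every library. Ptcd3, a mitochondrial ribosome protein gene on the opposite strand whose own start lies 291 bases from that of Polr1a, was at 2.87 and 2.89 FPKM in granulocytes and at 30.6, 33.8 and 34.9 FPKM in LncHSC-1-KD, LncHSC-2-KD and Control-KD. St3gal5, a sialyltransferase gene that starts 118252 bases past the end of Polr1a on the same strand, was at 89.9 and 90.6 FPKM in granulocytes and at 14.1, 13.1 and 13.8 FPKM in the KSL libraries. Where the reads of Polr1a lie along the gene was not analysed here.

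The small subunit maturation factors had a median of 1.24 FPKM in granulocytes and 45.4 FPKM in Control-KD. Wdr43, Wdr75 and Wdr3, which belong to the small subunit processome that assembles on the nascent precursor, were at 66.5, 47.0 and 31.4 FPKM in Control-KD. In granulocytes Wdr43 was at 1.76 and 1.52 FPKM, Wdr75 at 0.934 and 1.00 FPKM, and Wdr3 at 5.87 and 5.56 FPKM, which placed Wdr3 at percentile 74.9. Nob1, the nuclease that makes the last cut of 18S ribosomal RNA, was at 0.940 and 1.05 FPKM in granulocytes and at 52.3, 53.5 and 52.5 FPKM in LncHSC-1-KD, LncHSC-2-KD and Control-KD. Noc4l and the export factor Rrp12 were at 43.8 and 19.4 FPKM in Control-KD and at or below 1.51 FPKM in both granulocyte replicates.

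The 10 measured large subunit maturation factors had a median of 1.34 FPKM in granulocytes and 38.9 FPKM in Control-KD. Pes1, Bop1 and Wdr12 form the PeBoW complex of 60S assembly. Pes1 was at 3.71 and 3.89 FPKM in granulocytes and at 54.0, 54.8 and 55.8 FPKM in LncHSC-1-KD, LncHSC-2-KD and Control-KD. Bop1 was at 3.08 and 2.84 FPKM in granulocytes and at 59.3, 55.6 and 57.6 FPKM in the KSL libraries. Wdr12 was at 0.547 and 0.637 FPKM in granulocytes and at 38.3, 40.1 and 38.8 FPKM in the KSL libraries. Wdr12 was the lowest of the 3 subunits in every library.

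Among the other large subunit factors, the RNA helicases Ddx21 and Ddx18 were at 114 and 38.9 FPKM in Control-KD, and their granulocyte means were 3.28 and 1.30 FPKM. Gnl3 (nucleostemin), a nucleolar GTPase, was at a mean of 1.16 FPKM in granulocytes and at 102, 105 and 106 FPKM in the KSL libraries. Nle1, a 60S maturation factor whose loss depletes blood stem cells in mice, was at 0.285 and 0.274 FPKM in granulocytes and at 23.7, 22.7 and 23.0 FPKM in the KSL libraries. Rrp1b (mm9 chr17:32173107-32199807, + strand), a nucleolar protein, was at 1.47 and 1.28 FPKM in granulocytes and at 22.7, 19.6 and 24.5 FPKM in LncHSC-1-KD, LncHSC-2-KD and Control-KD. Nip7 and Noc3l completed the group, with 25.2 and 13.9 FPKM in Control-KD and granulocyte values of at most 1.42 FPKM. Mybbp1a, the regulator of ribosomal RNA genes, was at 2.94 and 2.98 FPKM in granulocytes and at 146, 142 and 142 FPKM in the KSL libraries.

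Of the 34 members, 33 had a lower percentile in granulocytes than in Control-KD, and Polr1a was the exception. A gene that stands high in one sample tends to stand lower in another, so the members were set beside genes above a level in Control-KD. That set includes the members and was not matched to their level, which had a median of 54.9 FPKM in Control-KD. How much of the difference comes from this tendency was not tested. Of the 6279 named genes at 10 FPKM or more in Control-KD, 64.5% had a lower percentile in granulocytes, with a median difference of −4.61 percentile points; the median difference of the members was −29.1 points. At 5 FPKM or more in granulocytes were 14.7% of the members and 64.6% of those 6279 genes. These are descriptions of 1 sample of each kind, without a test.

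**Figure D2:**
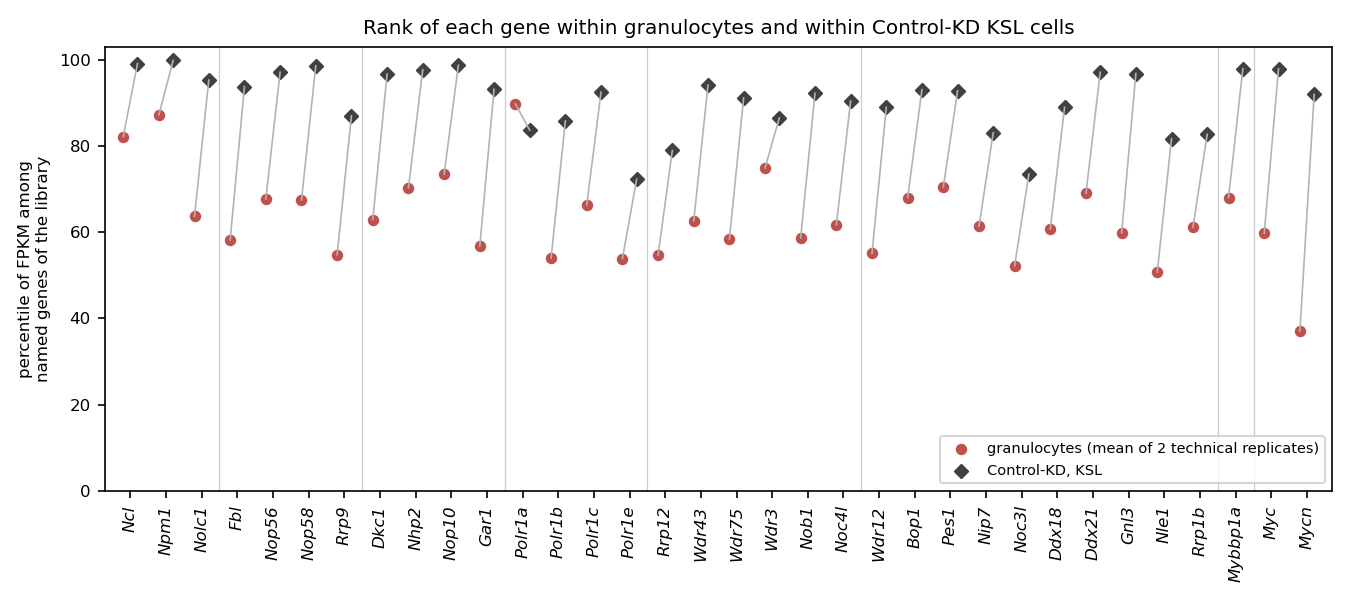
Percentile of each member among 19904 named genes in granulocytes and in Control-KD, with a line joining the values of each gene. All members except Polr1a lie lower in granulocytes; the medians are percentile 61.6 in granulocytes and 92.7 in Control-KD.

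Between the granulocyte replicates the members differed by at most 0.226 on the log2 scale of FPKM + 1, with a median difference of 0.0614, which is the spread between runs and not between animals. The added 1 FPKM narrows this spread for members at low levels. Polr1b was at 0.432 and 0.562 FPKM, Noc3l at 0.308 and 0.410 FPKM, and Mycn at 0.00771 and 0.0231 FPKM.

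Several members overlap a gene on the opposite strand, and the sources used here do not say whether reads were counted by strand, so reads of the pair cannot be told apart. Mpp1, which overlaps Dkc1, was at 38.3 FPKM in granulocytes, Rmnd5b, which overlaps Nhp2, at 29.2 FPKM, Heatr7a, which overlaps Bop1, at 15.3 FPKM, and Idh3b, which overlaps Nop56, at 13.6 FPKM. Each was above the member it overlaps in granulocytes. Gnl3, Wdr12, Wdr3 and Polr1b also overlap another feature; those partners were at 2.82, 0.908, 0.0678 and 0.521 FPKM in granulocytes.

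The MYC factors followed the same order between the cell kinds. Myc (mm9 chr15:61816896-61821916, + strand) was at 1.16 and 1.14 FPKM in granulocytes and at 137, 135 and 139 FPKM in LncHSC-1-KD, LncHSC-2-KD and Control-KD. Mycn (mm9 chr12:12942899-12948642, - strand), its paralogue, was at 0.00771 and 0.0231 FPKM in granulocytes, where it had 1 and 3 count units, and at 50.6, 49.6 and 51.3 FPKM in the KSL libraries. Myc stood at percentile 59.7 in granulocytes and 97.9 in Control-KD, and Mycn at 37.0 and 92.0. Mycl, the third paralogue, was at a mean of 0.09 FPKM in granulocytes and at or below 0.15 FPKM in the KSL libraries. Both MYC genes were therefore abundant in all 3 KSL libraries, and Mycn was the lowest member in granulocytes.

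The partners and antagonists of MYC differed among themselves. Of 24 measured genes of this network, 14 were at 5 FPKM or more in granulocytes; 9 had a lower percentile there than in Control-KD and 15 a higher one. Of all named genes 26.5% were at 5 FPKM or more in granulocytes and 64.6% had a lower percentile there. That 64.6% includes every gene at 0 FPKM in both samples. Tied zeros stand at percentile 14.7 in granulocytes and 15.8 in Control-KD, so such genes count as lower. Mycl and the genes named next were chosen after their values were seen. Mxd1 (MAD1), which pairs with MAX in place of MYC and represses E-box genes as myeloid cells mature, was at 401 and 399 FPKM in granulocytes and at 3.81, 3.65 and 3.51 FPKM in LncHSC-1-KD, LncHSC-2-KD and Control-KD. Its percentile was 99.6 in granulocytes and 56.8 in Control-KD. Mxi1, another repressor of the same family, was at 23.4 FPKM in both granulocyte replicates and at 5.32, 4.82 and 6.00 FPKM in the KSL libraries. Max itself was at 132 and 129 FPKM in granulocytes and at 61.7, 59.6 and 61.9 FPKM in the KSL libraries. In granulocytes Mxd1 was thus far above Myc, and in the KSL libraries Myc was far above Mxd1.

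**Figure D3:**
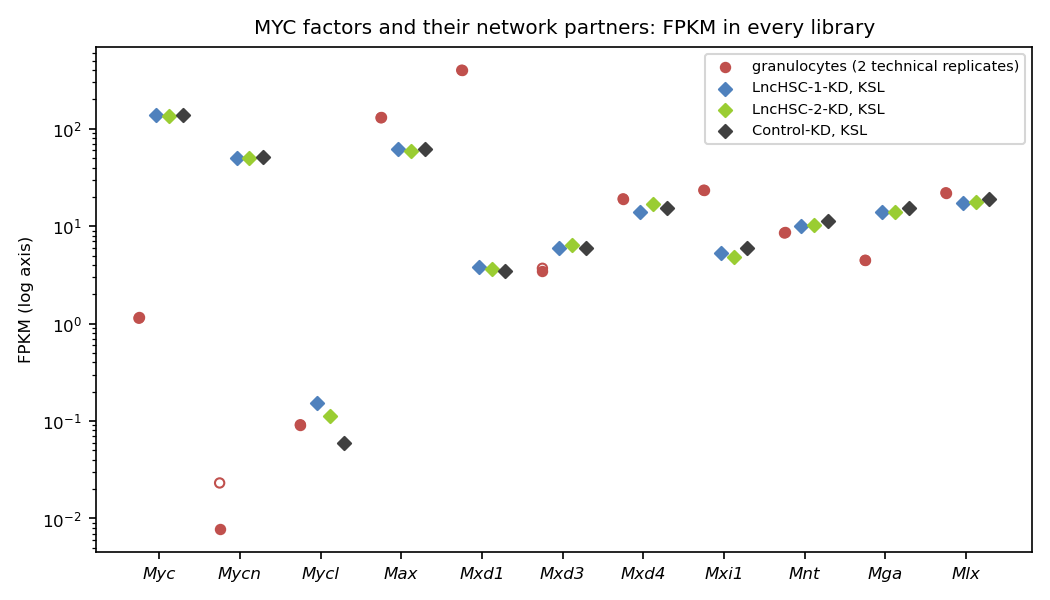
FPKM (log axis) of the MYC network genes in granulocytes (circles) and in the 3 KSL libraries (diamonds). Mxd1 stands near 400 FPKM in granulocytes and under 4 FPKM in KSL cells, while Myc and Mycn lie the other way round.

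Further lists of genes around the members, drawn up from textbook knowledge, placed the rest of the pathway beside them. Of 48 measured small subunit processome and 40S factors, 15 were at 5 FPKM or more in granulocytes and 48 in Control-KD, with median percentiles of 65.2 and 86.3. Of 50 60S assembly and export factors, 13 were at that level in granulocytes and 50 in Control-KD, with median percentiles of 68.2 and 89.0. Of 15 snoRNP assembly factors, 2 were at that level in granulocytes and 14 in Control-KD, with median percentiles of 59.0 and 80.0. No gene of the 60S and snoRNP assembly lists, and 3 genes of the small subunit list, had the higher percentile in granulocytes. Fbll1 of the snoRNP list was at 0 FPKM in every library, so its lower percentile came from tied zeros alone. The granulocyte shares at 5 FPKM or more were 31.25%, 26% and 13.3% in the order given, against 26.5% of all named genes. In Control-KD 40% of all named genes were at that level. A lower percentile in granulocytes was found for 64.6% of all named genes and for 64.5% of those at 10 FPKM or more in Control-KD.

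Polymerase, metabolic and other lists differed in how far they shared this order. In granulocytes the share at 5 FPKM or more was 47.1% of the other RNA polymerase I genes and 39.5% of the MYC targets. It was 29.2% of the exosome and processing enzymes, against 26.5% of all named genes. Among 17 other RNA polymerase I genes, 8 were at 5 FPKM or more in granulocytes and 2 ranked higher there; Ubtf, chosen after its values were seen and known as the factor that keeps ribosomal RNA genes open, had 18.4 FPKM in granulocytes and 57.6 FPKM in Control-KD. Among 43 MYC targets in metabolism and growth, 17 were at 5 FPKM or more in granulocytes and 1 had a higher percentile there, and the median percentiles were 71.2 and 97.0. Of 24 exosome and pre-rRNA processing enzymes, 7 were at 5 FPKM or more in granulocytes and 1 ranked higher there. RNA polymerase III genes were more mixed, with 9 of 22 ranking higher in granulocytes and median percentiles of 69.9 and 76.1. This list holds subunits, initiation factors such as Brf1 and Gtf3c1, and the repressor Maf1. The p53 targets, read because stalled ribosome assembly activates p53, had median percentiles of 67.3 in granulocytes and 68.2 in Control-KD, and 10 of 22 ranked higher in granulocytes.

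**Figure D4:**
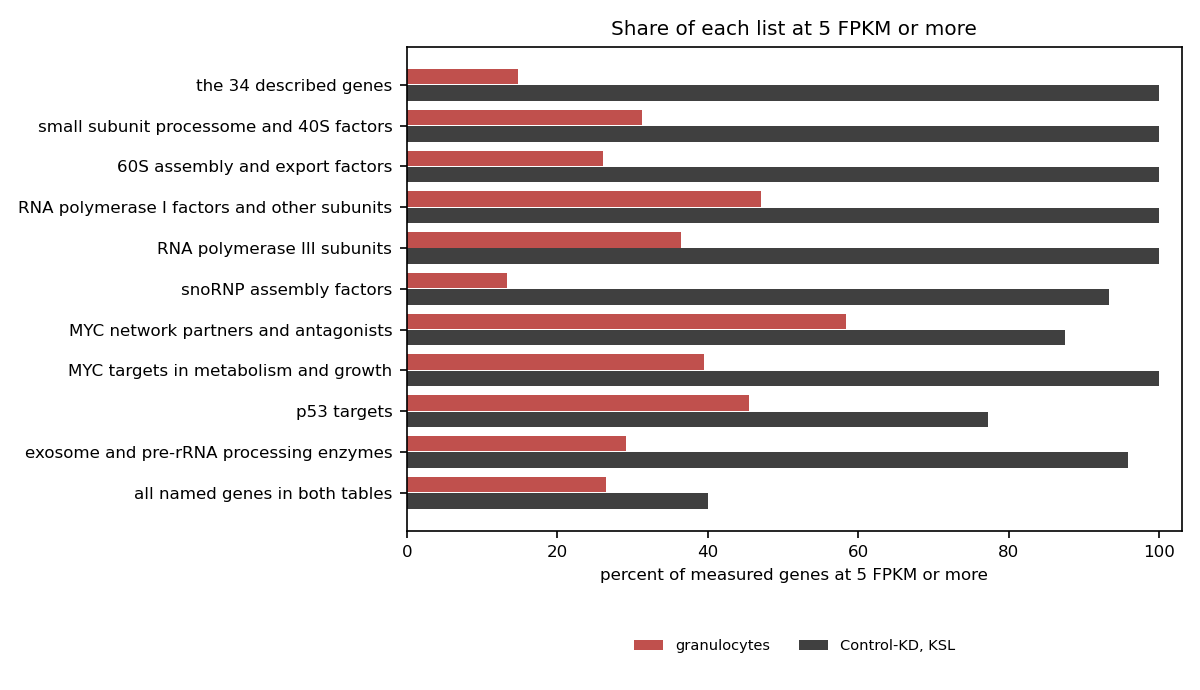
Percent of the measured genes of each list at 5 FPKM or more, with granulocytes as red bars and Control-KD as dark bars. All lists have the lower share in granulocytes, from 13.3% of the snoRNP assembly factors to 58.3% of the MYC network genes, and so do all named genes, with 26.5% in granulocytes and 40% in Control-KD.

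The comparison of the knockdowns with the control asked which genes LncHSC-1 and LncHSC-2 affect in KSL cells. Ratios are given as log2 of FPKM + 1, which slightly understates a change, and a difference of 1.2-fold served as a rule of size because 1 library per group allows no test. Intervals in brackets are 95% counting intervals of the estimated reads; they hold no error other than that of counting, and they set single libraries, not conditions, against each other. Like most named genes, nearly all members were within 1.2-fold of the control in both knockdowns. Of 34 members, none was higher and none lower by 1.2-fold in LncHSC-1-KD than in Control-KD, where 3.80% of 7991 named genes with a mean of at least 5 FPKM were higher and 2.30% lower. In LncHSC-2-KD none was higher and 1, Rrp1b, was lower than in Control-KD, against 1.73% and 1.16% of the named genes. Between LncHSC-1-KD and LncHSC-2-KD none was higher and none lower, against 3.34% and 2.20%. For 34 members these shares come to few genes, so the counts are not read as a result about the members.

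No member passed 2-fold in any of the 3 comparisons, where 0.238%, 0.0751% and 0.188% of the named genes did. The median log2 ratio of the members was −0.02 in LncHSC-1-KD over Control-KD, in LncHSC-2-KD over Control-KD and in LncHSC-1-KD over LncHSC-2-KD; the medians of the named genes were −0.02, 0.00 and −0.03. Within 0.1 of 0 lay 27, 27 and 30 of the 34 members, against 58.6%, 71.0% and 62.0% of the named genes, most of which stood lower in FPKM than the typical member. In LncHSC-1-KD over Control-KD 8 members were above 0 and 26 below, against 43.1% and 56.9% of the named genes, and 18 members and 50% of the named genes were below after FPKM was rescaled by median of ratios. In LncHSC-2-KD over Control-KD 10 members were above 0 and 24 below, against 51.8% and 48.2% of the named genes, and 26 members and 50.1% of the named genes were below after rescaling. In LncHSC-1-KD over LncHSC-2-KD 16 were above 0 and 18 below, against 39.8% and 60.1%, and 14 members and 50.6% of the named genes were below after rescaling. Both knockdowns were set against the same Control-KD library, so their ratios are not independent.

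**Figure D5:**
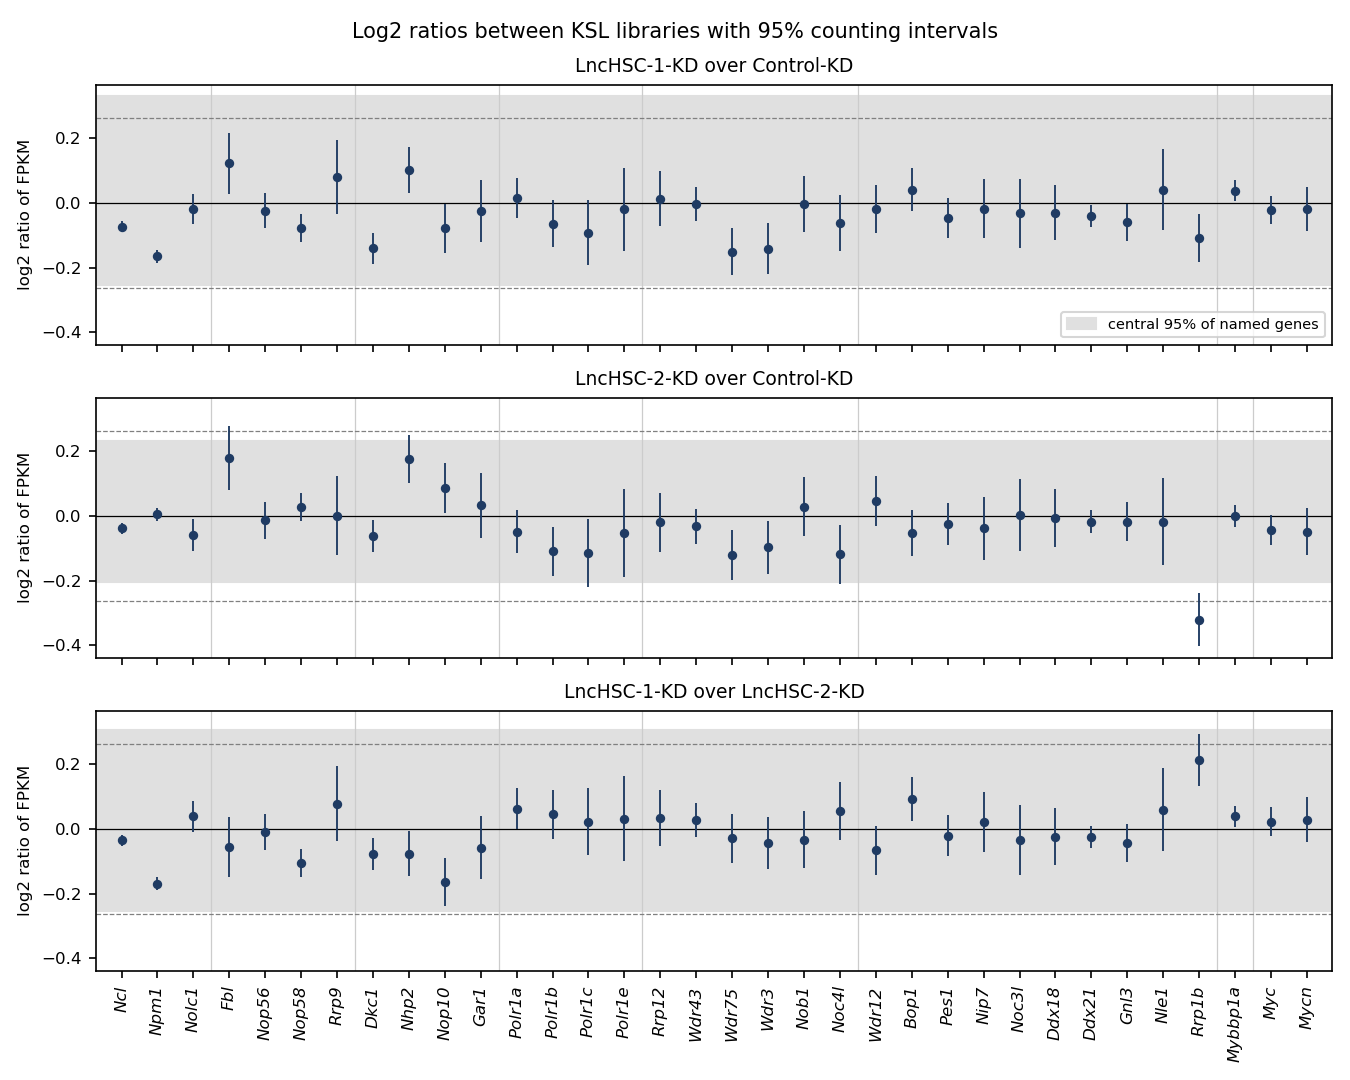
Log2 ratio of FPKM, here without a pseudocount, of each member between KSL libraries, with 95% counting intervals as vertical lines; the grey band holds the central 95% of 7991 named genes and dashed lines mark 1.2-fold. Members lie near 0 in each panel, and Rrp1b in LncHSC-2-KD over Control-KD is the one point past a dashed line.

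Myc and Mycn were near the control level in both knockdowns. The log2 ratio of Myc was −0.02 [−0.07, 0.02] in LncHSC-1-KD over Control-KD and −0.04 [−0.09, 0.00] in LncHSC-2-KD over Control-KD. That of Mycn was −0.02 [−0.09, 0.05] in LncHSC-1-KD and −0.05 [−0.12, 0.02] in LncHSC-2-KD, each over Control-KD. All 4 intervals included 0, and the spread between separate cultures is not known.

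Rrp1b was the member furthest from the control. With 22.7, 19.6 and 24.5 FPKM in LncHSC-1-KD, LncHSC-2-KD and Control-KD, its log2 ratio was −0.31 [−0.40, −0.24] in LncHSC-2-KD over Control-KD, which is 1.24-fold lower and at percentile 0.795 of the named genes. In LncHSC-1-KD over Control-KD it was −0.10 [−0.18, −0.03], and in LncHSC-1-KD over LncHSC-2-KD it was 0.20 [0.13, 0.29]. With a pseudocount of 5 FPKM the ratio in LncHSC-2-KD over Control-KD was −0.26 and no longer past 1.2-fold.

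Fbl and Nhp2 were the highest members against the control in both knockdowns. The log2 ratio of Fbl was 0.12 [0.03, 0.22] in LncHSC-1-KD and 0.18 [0.08, 0.28] in LncHSC-2-KD, each over Control-KD. That of Nhp2 was 0.10 [0.03, 0.17] in LncHSC-1-KD and 0.18 [0.10, 0.25] in LncHSC-2-KD, each over Control-KD. Other core proteins of the same complexes had lower ratios. Nop58, at 176, 189.8 and 186 FPKM in LncHSC-1-KD, LncHSC-2-KD and Control-KD, had a ratio of −0.08 [−0.12, −0.04] in LncHSC-1-KD over Control-KD, where Dkc1 had one of −0.14 [−0.19, −0.09]. In LncHSC-2-KD Nop58 was at 0.03 [−0.02, 0.07] and Dkc1 at −0.06 [−0.11, −0.01] over Control-KD.

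Npm1 differed from the control in LncHSC-1-KD, with a log2 ratio of −0.16 [−0.18, −0.14], and not beyond counting error in LncHSC-2-KD, with 0.00 [−0.02, 0.03]. Between the knockdowns, LncHSC-1-KD over LncHSC-2-KD, it was −0.17 [−0.19, −0.15]. Ncl was at −0.07 [−0.09, −0.06] in LncHSC-1-KD and −0.04 [−0.06, −0.02] in LncHSC-2-KD over Control-KD. These highly expressed members have narrow intervals because each rests on many estimated reads, 41954 for Npm1 and 60558 for Ncl in LncHSC-1-KD. Nop10 was at −0.08 [−0.15, −0.00] in LncHSC-1-KD and 0.08 [0.01, 0.16] in LncHSC-2-KD over Control-KD, and at −0.16 [−0.24, −0.09] in LncHSC-1-KD over LncHSC-2-KD.

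The small subunit factors Wdr75 and Wdr3 were lower than the shared control in both knockdowns. Among the ratios of the named genes, Wdr75 was at percentile 13.7 in LncHSC-1-KD and 9.93 in LncHSC-2-KD. Wdr3 was at percentiles 15.6 and 14.6 in the same order. Wdr75, at 42.4, 43.2 and 47.0 FPKM in LncHSC-1-KD, LncHSC-2-KD and Control-KD, had a log2 ratio of −0.15 [−0.22, −0.08] in LncHSC-1-KD and −0.12 [−0.20, −0.04] in LncHSC-2-KD over Control-KD. Wdr3, at 28.5, 29.4 and 31.4 FPKM in these libraries, had one of −0.14 [−0.22, −0.06] in LncHSC-1-KD and −0.09 [−0.18, −0.02] in LncHSC-2-KD over Control-KD. Of the RNA polymerase I subunits, Polr1b was at −0.11 [−0.19, −0.03] and Polr1c at −0.11 [−0.22, −0.01] in LncHSC-2-KD over Control-KD. In LncHSC-1-KD over Control-KD their intervals included 0. Noc4l, at 41.96, 40.4 and 43.8 FPKM in LncHSC-1-KD, LncHSC-2-KD and Control-KD, had a ratio of −0.12 [−0.21, −0.03] in LncHSC-2-KD over Control-KD.

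Counting intervals lay above 0 for 3 members and below 0 for 10 in LncHSC-1-KD over Control-KD, against 15.2% and 26.2% of the named genes. They lay above 0 for 3 and below 0 for 9 in LncHSC-2-KD over Control-KD, against 13.5% and 13.0%. For LncHSC-1-KD over LncHSC-2-KD they lay above 0 for 3 and below 0 for 6, against 12.7% and 24.7%. An interval narrows as reads increase, and the members stood higher than most named genes, so these shares are not read as a result.

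Few genes of the lists around the members passed 1.2-fold from the control, as was so for all named genes. In LncHSC-1-KD over Control-KD, 1 of 48 small subunit factors, Nol6, was higher by 1.2-fold and 1, Nol10, lower. None of 50 60S factors, 17 other RNA polymerase I genes, 22 RNA polymerase III genes, 21 MYC network genes or 23 exosome and processing enzymes passed that size. Of 14 snoRNP assembly factors 1, Naf1, was lower. Nol6, a nucleolar protein of the small subunit processome, was at 25.2, 26.5 and 18.0 FPKM in LncHSC-1-KD, LncHSC-2-KD and Control-KD, and its log2 ratio was 0.47 in LncHSC-1-KD and 0.54 in LncHSC-2-KD, each over Control-KD. Nol10 was at 14.6, 15.0 and 17.9 FPKM in the same libraries. Nol6 was thus further from the control than any member.

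In LncHSC-2-KD over Control-KD, Nol6 was the 1 small subunit factor past 1.2-fold, and Mxi1 the 1 MYC network gene, with a log2 ratio of −0.27. None of the 60S, RNA polymerase III, snoRNP assembly or exosome lists passed it. Of the RNA polymerase I genes 1 was lower: Polr2k, a small subunit shared by all 3 nuclear RNA polymerases, was at 14.4, 11.1 and 16.0 FPKM in LncHSC-1-KD, LncHSC-2-KD and Control-KD, with a log2 ratio of −0.48 in LncHSC-2-KD over Control-KD. Among the MYC targets in metabolism and growth, Eif5a, a translation factor, was at 793, 1007 and 997 FPKM in these libraries and Tfrc, the transferrin receptor, at 40.4, 44.7 and 49.5 FPKM. They were the 2 of 43 that passed 1.2-fold in LncHSC-1-KD over Control-KD, both lower, and none did in LncHSC-2-KD. Of 17 p53 targets with a mean of at least 5 FPKM, 2 were higher and 1 lower in LncHSC-1-KD than in Control-KD, and 2 higher and 0 lower in LncHSC-2-KD. Bbc3 (Puma) was higher by 1.2-fold in both knockdowns, at 10.0, 10.9 and 8.18 FPKM in LncHSC-1-KD, LncHSC-2-KD and Control-KD. Cdkn1a (p21), the cell cycle inhibitor, was at 49.7, 63.6 and 58.1 FPKM in the same libraries and was lower by 1.2-fold in LncHSC-1-KD than in LncHSC-2-KD. In that comparison Polr2k and Btg2, a p53 target that slows division, were the genes of these lists higher by 1.2-fold, and Eif5a and Cdkn1a those lower.

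Some markers of other cells were further from the control than the members. The 8 B lineage markers summed to 106, 61.1 and 58.5 FPKM in LncHSC-1-KD, LncHSC-2-KD and Control-KD, and the 6 monocyte and dendritic markers to 259, 154 and 144 FPKM. None of these markers was at 0 in any KSL library. The 5 megakaryocyte markers summed to 723, 696 and 562 FPKM, and the 8 cycling genes to 852, 919.7 and 885 FPKM. Of these 8, 7 were below 0 in LncHSC-1-KD over Control-KD and 3 in LncHSC-2-KD over Control-KD. Rrm2, a subunit of ribonucleotide reductase chosen after its values were seen, was the exception in LncHSC-1-KD, at 91.5, 87.3 and 50.9 FPKM in LncHSC-1-KD, LncHSC-2-KD and Control-KD, which are log2 ratios of 0.84 and 0.77 over Control-KD. The 7 T and NK markers summed to 1.41, 1.06 and 1.05 FPKM, with 2, 2 and 0 of them at 0. The 10 granulocyte markers summed to 121, 116 and 128 FPKM, and Ly6g was at 0 in LncHSC-2-KD. The part of these cells in the members' ratios was not tested.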

How the data were processed

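FPKM values as deposited by the authors were the main measure. Per the file headers, the KSL tables also give a count column, which was treated as a signal, because low values in each library came in even steps: 91.8% to 92.1% of those below 20 steps were whole numbers of steps (tolerance 0.1). One such step was taken as a read. The deposited granulocyte count column was treated as a score, meaning scaled and rounded reads, and the granulocyte FPKM is this score per kilobase divided by 50 M in each file. The submitters' processing notes name mm9 and DESeq; the sources used here do not give the aligner, counter, annotation release or use of strand.

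Ratios were log2((FPKM + 1)/(FPKM + 1)) for features with a mean of at least 5 FPKM over the 3 KSL libraries (9153 features, of which 7991 named genes), described with 1.2-fold and 2-fold as rules of size. Exact binomial 95% intervals compare the estimated reads of 2 libraries, without a pseudocount. With 1 library per group no test was run and no p-value is given. The 2 granulocyte replicates were averaged. Scripts were tested on simulated data. Tools were Python 3.11.15, numpy 2.4.6, pandas 2.3.3, scipy 1.17.1 and matplotlib 3.10.9.

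Members and lists were chosen with earlier results of these data known. Values per library are given for Myc, Mycn, the highest members in each cell kind and the highest and lowest ratios of each comparison, for other members by role, and for at most 3 genes at each end of a further list. Alternatives were other pseudocounts (0.1 and 5 FPKM), floors, the count columns, rescaled FPKM, 1.5-fold, other levels and single granulocyte replicates.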

Additional observations from a re-analysis of the deposited data

How the results depend on the processing

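The medians of the 3 comparisons between KSL libraries moved little with pseudocounts of 0.1 and 5 FPKM, with no floor or one of 20 FPKM, and after centring. Little here means under 0.0731, 0.0772 and 0.0751 on the log2 scale, the size of a single member's counting error and not that of a median. In LncHSC-1-KD over Control-KD the median went from −0.024 to −0.0028 with centred count columns, and 19 members in place of 26 were below 0. With the count columns as deposited, the median log2 ratio of the members was −0.17 in LncHSC-2-KD over Control-KD and 0.13 in LncHSC-1-KD over LncHSC-2-KD; all named genes had medians of −0.14 and 0.12 there, so the shift came with the scaling of the count column. The number of members past 1.2-fold in LncHSC-2-KD over Control-KD, 1 as reported, was 3 with those count columns (Rrp1b, Wdr75 and Noc4l), 0 with a pseudocount of 5 FPKM and 0 at 1.5-fold. In LncHSC-1-KD over LncHSC-2-KD it was 1 with the count columns. Of 102 single ratios, 68 moved by more than the error given by their counting interval with the count columns as deposited, 4 each after centring or rescaling (those of Npm1 and Ncl) and none with another pseudocount. The ratio of Rrp1b kept its sign throughout. In granulocytes 22 members were at 1 FPKM or more and 3 at 10 FPKM or more, and 4 to 5 were at 5 FPKM or more when either replicate was left out. No paired analysis was possible because each KSL group has 1 library and the labels pair no samples. The planned description of protein sequences was not run. Depth limits single ratios to about 0.1 on the log2 scale for most members; without replicate cultures the spread between libraries of 1 condition is unknown.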
